A study of Mus musculus with 21 samples.

Results

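The data described here are the RNA levels of 10 heat shock and unfolded protein response genes in mouse inflammatory monocytes (IMs). The genes are Hspa1a, Hspa1b, Dnajb1, Hsph1, Hspa8, Hsp90aa1, Hspa5, Ddit3, Atf4 and Xbp1. They were chosen by symbol, and all 10 were found among the 23420 gene symbols of the count table. All 10 passed the filter on low counts in each of the 6 comparisons made.

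The 21 libraries fall into 5 groups. BM IMs were taken from the bone marrow of non-tumor-bearing FVB mice (n = 3) and non-tumor-bearing DBA2 mice (n = 3). Tumor-infiltrating inflammatory monocytes (TIMs) came from primary lung tumors (n = 5) and lymph node metastases (n = 5) of FVB mice given 500000 LN2E1 cells by orthotopic injection into the lung, and from lungs of DBA2 mice (n = 5) given 300000 LN4K1 cells intravenously. LN2E1 is a metastatic derivative of the KAL lung squamous carcinoma line and LN4K1 a derivative of KLN-205, so each tumor model rests on 1 cell line. Adult mice of both sexes were used in the study, and IMs were enriched with a monocyte kit and then sorted as CD45+SiglecF-CD11b+Ly6G-Ly6C hi cells. The study's methods call the libraries of a group technical replicates and do not say which came from separate mice, so the p-values below measure the spread between these libraries only. Every comparison of TIMs with BM IMs is also one between tissues, as no IMs from tumor-free lungs or lymph nodes were sequenced. The study's methods describe mincing and warm enzyme digestion for lung tissue. Tumor, tissue of origin and cell isolation therefore cannot be told apart in these comparisons.

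Every library held between 80772922 and 101043568 counts. The summed level of 8 inflammatory monocyte markers was between 39200 and 124000 CPM (counts scaled to library size) in every library, the cell type the sort aimed at. Most of this sum was Lyz2, at 29000 to 115000 CPM. Single markers differed between groups. Ly6c2, a gene of the Ly6C sort marker, was at 2430 to 3600 CPM in BM IMs and lower, at 974 to 1690 CPM, in TIMs. Ly6c1 was also lower in TIMs, while Ptprc was higher, at 616 to 741 CPM in BM IMs and 1200 to 3010 CPM in TIMs. Markers of other cells differed between groups. The 11 neutrophil markers summed to between 3110 and 6760 CPM in BM IMs and between 300 and 2030 CPM in TIMs, and 5 proliferation genes to between 796 and 955 CPM in BM IMs and between 14.4 and 73.1 CPM in TIMs. Single neutrophil markers went both ways. Mpo was at 1260 to 1710 CPM in BM IMs and at most 80.1 CPM in TIMs. Mmp8 was at 391 to 476 CPM in FVB BM IMs, 534 to 754 in primary tumor TIMs and 214 to 629 in lymph node TIMs. It was at 201 to 256 CPM in DBA2 BM IMs and 707 to 1020 in LN4K1 lung TIMs. Cxcr2 was at 1.18 to 3.28 CPM in FVB BM IMs and 13.2 to 73.8 in primary tumor TIMs. The 5 fibroblast markers summed to between 361 and 1100 CPM in primary tumor TIMs and to at most 87.1 CPM in every other library. Those of lung epithelium were at 130 to 856 CPM in primary tumor TIMs, 6.48 to 100 CPM in LN4K1 lung TIMs and at most 1.58 CPM elsewhere. Dendritic cell markers summed to between 9.9 and 20 CPM in BM IMs and between 40.7 and 562 CPM in TIMs, macrophage markers to between 865 and 2040 and between 2310 and 5570 CPM, squamous epithelium markers to at most 2.05 and between 1.16 and 140 CPM, and eosinophil markers to between 445 and 1190 and between 5.86 and 74.2 CPM. Most of the macrophage sum in TIMs was Apoe, at 1990 to 5220 CPM, while C1qa, C1qb and C1qc overlapped between TIMs and BM IMs of each strain. The squamous sum was mostly Cdh1, at up to 136 CPM, with Krt5, Krt6a and Trp63 at most 0.291 CPM in any library. The part of these cells in the results was not tested, and in bulk RNA fewer cells of a type and less RNA per cell cannot be told apart.

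Cells meet misfolded protein with separate programs for separate compartments. In the cytosol and nucleus, heat shock factor 1 induces chaperones of the HSP70, HSP110 and HSP90 families together with J proteins, which deliver clients to HSP70 and stimulate its ATPase. In the endoplasmic reticulum (ER), the sensors IRE1, PERK and ATF6 are held by the chaperone BiP, the product of Hspa5, until unfolded protein draws it away. IRE1 splices Xbp1 mRNA into the form that encodes an active transcription factor, PERK phosphorylates eIF2alpha and so favors translation of ATF4, and ATF4 induces Ddit3, which encodes the stress and apoptosis regulator CHOP. Gene counts do not separate spliced from unspliced Xbp1 and do not measure the translation of Atf4.

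The starts of the 2 inducible HSP70 genes and of Hspa5 are shown because they carry the elements that the textbook account of these programs names. Sequences are from RefSeq on GRCm38.p6, written 5′ to 3′ along the gene's own strand. Capitals mark a heat shock element of 2 repeats (GAANNTTC) in Hspa1a and Hspa1b and the ER stress response element (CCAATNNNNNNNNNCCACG) in Hspa5. The first 2 lines are the 150 bases before the start of Hspa1a at chr17:34972157-34972306 and of Hspa1b at chr17:34959239-34959388, both on the minus strand, and the third is chr2:34772020-34772048 on the plus strand, beginning 5 bases before the element.
Hspa1a: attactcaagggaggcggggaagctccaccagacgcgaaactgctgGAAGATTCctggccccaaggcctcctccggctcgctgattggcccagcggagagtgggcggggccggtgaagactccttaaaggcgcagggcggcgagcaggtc
Hspa1b: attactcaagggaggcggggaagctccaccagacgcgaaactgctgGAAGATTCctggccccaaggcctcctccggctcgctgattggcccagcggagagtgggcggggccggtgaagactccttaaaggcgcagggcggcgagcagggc
Hspa5: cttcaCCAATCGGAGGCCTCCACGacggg

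The upstream windows of Hspa1a and Hspa1b were identical at 149 of 150 bases. In both, the heat shock element began 104 bases before the start. Over all 32851 RefSeq windows of 250 bases before and 50 after a start, searched on both strands, 7.86% held GAANNTTC, 0.603% held the longer form of 3 repeats (GAANNTTCNNGAA, which contains the shorter one) and 0.119% held the ER stress response element. Among the 8 members with such a window, the longer heat shock element was found in Hsph1 only and the ER stress response element in Hspa5 only, 65 bases before its RefSeq start. The UPR element TGACGTGG was in 0.676% and the C/EBP-ATF element TGATGNAAT in 0.965% of windows, and no member held either. Windows were matched for all members but Hspa8 and Hsp90aa1. These matches describe letters in a window and were not tested for binding.

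In TIMs, the inducible HSP70 genes and the ER chaperone gene Hspa5 had the largest differences of the members in the LN2E1 model, and Xbp1 and Hspa8 had the largest that passed the test in the LN4K1 model. Against FVB BM IMs, LN2E1 primary tumor TIMs had 6 members called higher (Hspa1a, Hspa1b, Dnajb1, Hspa8, Hspa5 and Xbp1) and 3 called lower (Hsp90aa1, Ddit3 and Atf4) at an adjusted p under 0.05, where 33.3% of all tested genes were called higher and 28.6% lower. Lymph node TIMs had the same 6 members called higher and 0 called lower, against 20.2% and 17.2% of all genes. LN4K1 lung TIMs, compared with DBA2 BM IMs, had 3 members called higher (Hspa8, Hspa5 and Xbp1) and 1 called lower (Ddit3), against 13.9% and 11% of all genes. The median log2 fold change of the 10 members was 0.45, 0.63 and 0.37 in these comparisons, beside 0.08, -0.04 and 0.03 over all genes. The first 2 comparisons share the FVB BM IM libraries and are not independent of each other.

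At the stricter thresholds that the study used for a DEG (an adjusted p below 0.0001 with a log2 fold change beyond 1 in either direction), Hspa1a, Hspa1b and Hspa5 passed in primary tumor TIMs, Hspa1a and Hspa1b in lymph node TIMs, and Xbp1 alone in LN4K1 lung TIMs. The study set these thresholds on DESeq2 p-values and shrunken fold changes, whereas here they were applied to the edgeR test. The counts therefore depend on the test. For Hspa5 in lymph node TIMs the adjusted p was 0.000127 by edgeR and as low as 8.3e-16 in alternative runs. Of all tested genes, 7.72%, 4.01% and 1.21% were DEGs with a higher level in TIMs in these comparisons. No member was a DEG with a lower level. By the edgeR test these counts depended on single libraries: 0 members passed in primary tumor TIMs without FVB BM IM replicate 1 or 2 and 1 without replicate 3, and Xbp1 no longer passed in LN4K1 lung TIMs when 1 library was left out, be it any of DBA2 BM IM or one of LN4K1 lung TIM replicates 1, 2, 4 and 5. With a filter of 1 count in total, Hspa1a and Hspa1b just missed in primary tumor TIMs (adjusted p = 0.000102 and 0.000113).

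**Figure D1:**
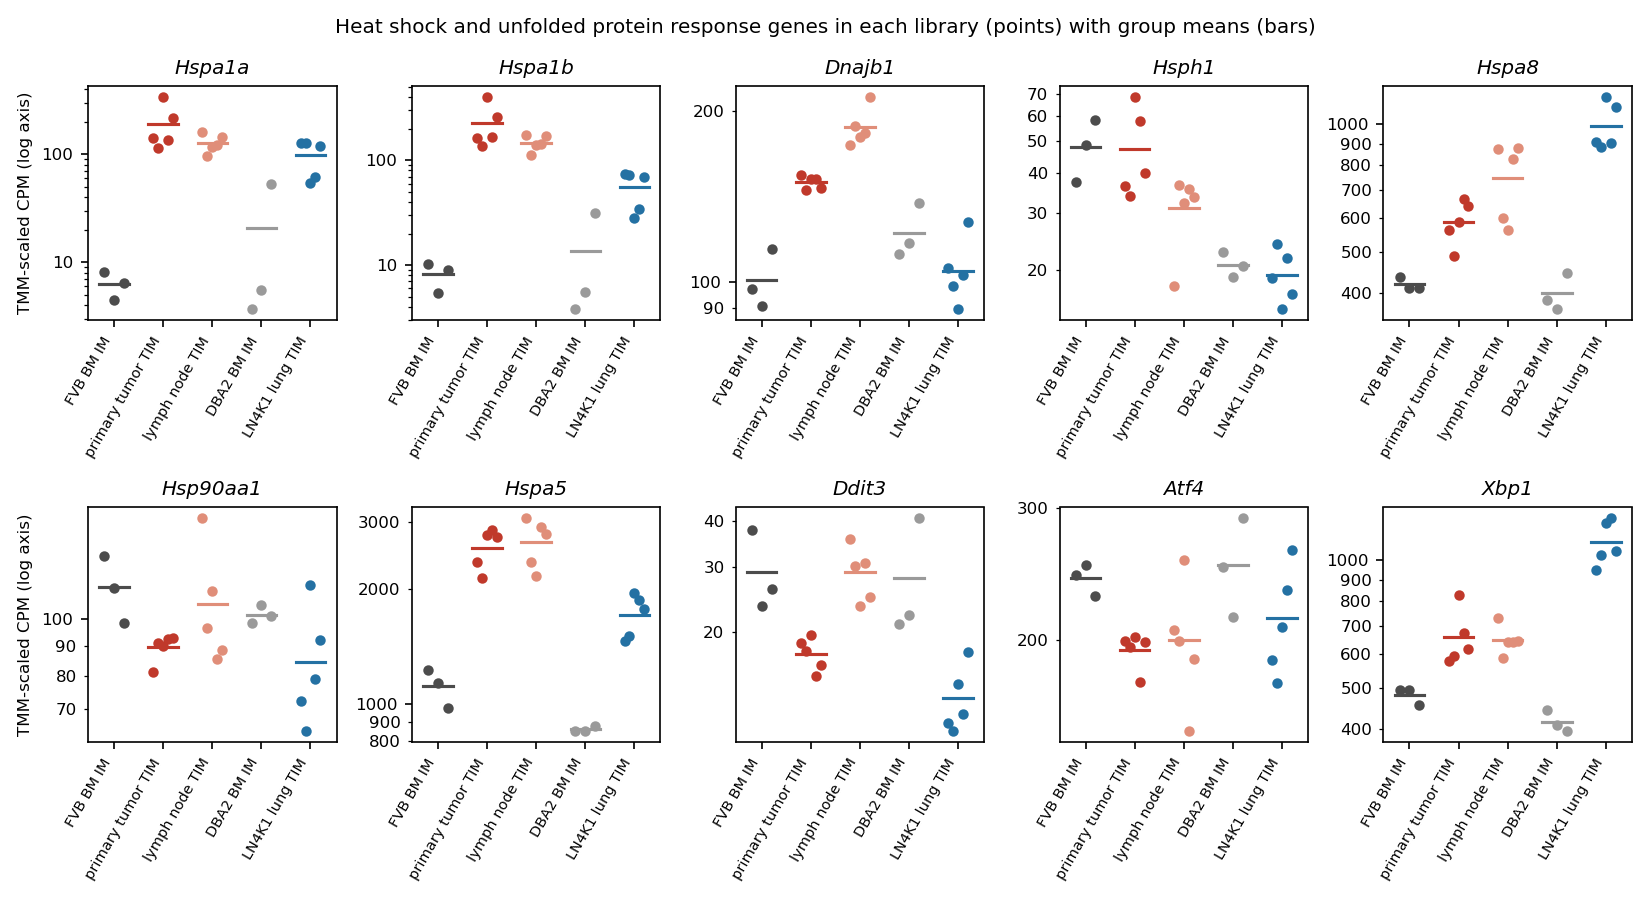
TMM-scaled CPM (log axis, with a separate range in each panel) of the 10 genes in each of the 21 libraries, by group; points are libraries and bars are group means. In the FVB mice Hspa1a and Hspa1b separate TIMs from BM IMs by more than any other member, while in the DBA2 mice the Hspa1b groups overlap, and DBA2 BM IM replicate 3 lies far above the rest of its group for both.

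Per length, Hspa5 was the most abundant member in every group, with a mean between 204 and 629 RPKM (CPM per kilobase of exon, on exon lengths of GENCODE vM21). In FVB BM IMs the order of mean levels in RPKM was Hspa5 (264), Xbp1 (148), Atf4 (103), Hspa8 (97.5), Dnajb1 (31.5), Hsp90aa1 (28.9), Ddit3 (17.0), Hsph1 (6.63), Hspa1b (2.93) and Hspa1a (2.15). The neighbours Atf4 and Hspa8, Dnajb1 and Hsp90aa1, and Hspa1b and Hspa1a lay within the sum of their standard deviations. In primary tumor TIMs the same 10 genes ran Hspa5 (608), Xbp1 (203), Hspa8 (137), Atf4 (82.4), Hspa1b (80.7), Hspa1a (64.0), Dnajb1 (46.8), Hsp90aa1 (22.8), Ddit3 (10.2) and Hsph1 (6.53). The inducible HSP70 genes were thus the least abundant members in FVB BM IMs and lay in the middle of the order in primary tumor TIMs.

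Hspa1a (chromosome 17, 34969190 to 34972156, minus strand, GRCm38) and Hspa1b (chromosome 17, 34956436 to 34959238, minus strand) encode the stress-inducible cytosolic HSP70. Hspa1a was at 8.22, 4.46 and 6.45 CPM in FVB BM IMs, at 141, 114, 342, 135 and 217 CPM in primary tumor TIMs and at 160, 95.7, 118, 123 and 145 CPM in lymph node TIMs. Every LN2E1 TIM library was above every FVB BM IM library, and primary tumor TIM replicate 3 was the highest of all 21 libraries. The log2 fold change of Hspa1a was 4.88 ± 0.47 (SE) in primary tumor TIMs (29.4-fold, adjusted p = 2.52e-05) and 4.33 ± 0.28 in lymph node TIMs (20.1-fold, adjusted p = 2.64e-06).

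In the DBA2 mice Hspa1a was at 3.68, 5.53 and 53.4 CPM in BM IMs and at 127, 127, 54.8, 61.9 and 120 CPM in LN4K1 lung TIMs. DBA2 BM IM replicate 3 thus stood far above the other DBA2 BM libraries, and the lowest lung TIM library lay just above it. The log2 fold change was 2.15 ± 0.84 and did not pass the test (adjusted p = 0.0935). When DBA2 BM IM replicate 3 was left out, it was 4.34 (adjusted p = 0.000719).

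Hspa1b gave the same picture in the LN2E1 model. It was at 10.3, 5.43 and 8.90 CPM in FVB BM IMs, at 164, 137, 405, 166 and 259 CPM in primary tumor TIMs and at 175, 113, 139, 142 and 169 CPM in lymph node TIMs. Its log2 fold change was 4.77 ± 0.46 (adjusted p = 2.83e-05) and 4.17 ± 0.27 (adjusted p = 2.81e-06). In DBA2 BM IMs it was at 3.78, 5.60 and 31.3 CPM and in LN4K1 lung TIMs at 73.9, 71.8, 28.3, 34.2 and 69.8 CPM, so that the groups overlapped at replicate 3 of each. There the log2 fold change was 1.96 ± 0.70 (adjusted p = 0.0707), and 3.49 (adjusted p = 0.00249) without DBA2 BM IM replicate 3.

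The immediate early genes, which cells induce within minutes of many stimuli including tissue dissociation, followed the HSP70 values in some libraries only. Summed over 15 genes such as Fos, Junb and Egr1, they were at 19700, 18000 and 33700 CPM in the 3 DBA2 BM IM libraries, with replicate 3 highest again. They were between 11400 and 17500 CPM in FVB BM IMs, between 23000 and 27900 in primary tumor TIMs, between 12800 and 17800 in lymph node TIMs and between 30000 and 45700 in LN4K1 lung TIMs. Lymph node TIMs thus overlapped FVB BM IMs in this sum but not in Hspa1a. Primary tumor TIM replicate 3, the library with the highest Hspa1a, had the lowest sum of its group (23000 CPM). Of the 15 genes, 10 were called higher in primary tumor TIMs, 6 in lymph node TIMs and 7 in LN4K1 lung TIMs, where 33.3%, 20.2% and 13.9% of all genes were. Their part in the HSP70 values was not tested.

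**Figure D2:**
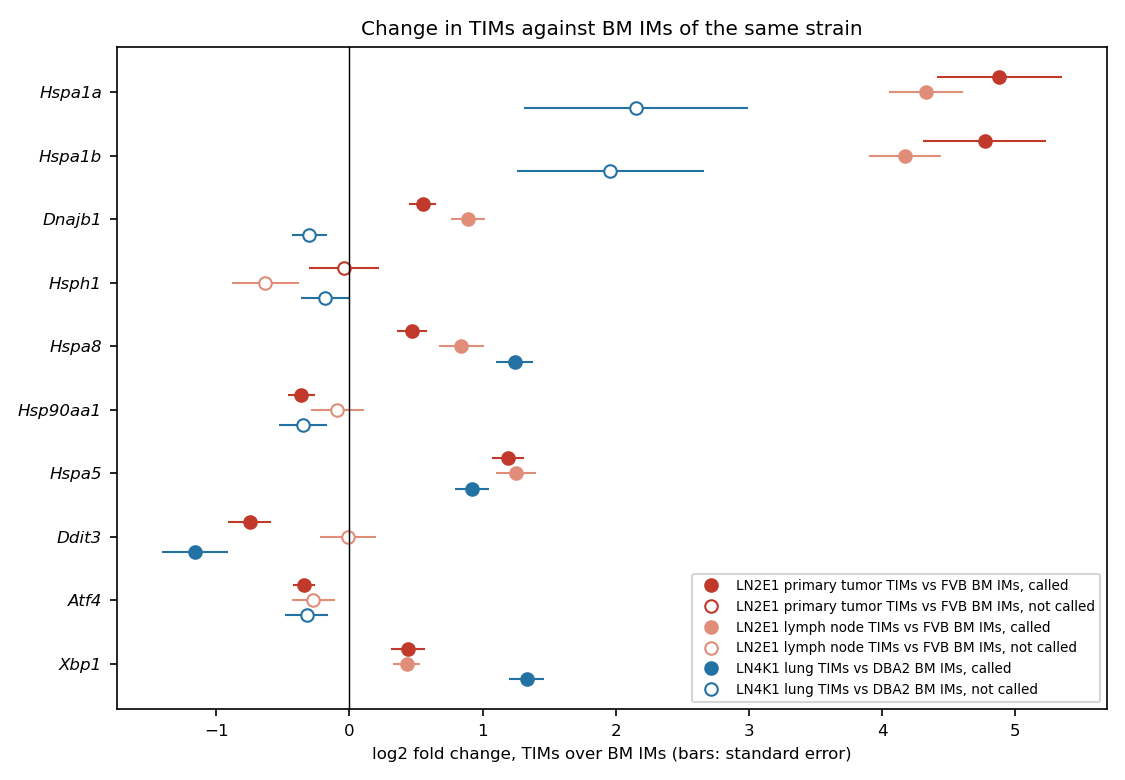
Log2 fold change of each member in TIMs over BM IMs of the same strain (x axis; bars are standard errors), with filled points for changes at an adjusted p under 0.05. Hspa1a and Hspa1b lie between 4.17 and 4.88 in the LN2E1 comparisons and near 2 with wide errors in LN4K1 lung TIMs, and Ddit3 lies at or below 0 in all 3.

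The 2 HSP70 genes share most of their sequence, so the counting of single reads between them is uncertain. Their reference transcripts are 2967 and 2803 bases long, were identical at 99% of 2215 aligned positions, and 58.8% of the 50-base windows of Hspa1a occurred exactly in Hspa1b. In addition, 564 exon bases of Hspa1a are shared with Gm20481 on the opposite strand, which a library without strand information cannot separate. With the counts of the 2 genes summed before the fit, the log2 fold change was 4.82 ± 0.46 in primary tumor TIMs (adjusted p = 2.67e-05), 4.24 ± 0.27 in lymph node TIMs (adjusted p = 2.43e-06) and 2.08 ± 0.78 in LN4K1 lung TIMs (adjusted p = 0.0824).

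The split of counts between the 2 copies differed between the models. Hspa1a made up 45.5% ± 0.51 (SD, n = 5) of the summed Hspa1a and Hspa1b counts in primary tumor TIMs, 46.4% ± 0.765 (n = 5) in lymph node TIMs and 64.1% ± 1.14 (n = 5) in LN4K1 lung TIMs. The 10 LN2E1 TIM libraries lay between 44.9% and 47.7% and the 5 LN4K1 lung TIM libraries between 63.1% and 65.9%. The difference was 18.1 percentage points (LN2E1 lower, two-sided exact permutation test, p = 0.000666, the smallest these numbers of libraries allow; 0.00333 after Benjamini-Hochberg adjustment over 5 such comparisons). Lymph node and primary tumor TIMs differed by 0.88 percentage points (exact permutation test, p = 0.0397, adjusted 0.0496).

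Among BM IMs, the share was 44.4%, 45.1% and 42% in FVB mice and 49.3%, 49.7% and 63.1% in DBA2 mice. The 2 groups did not overlap, and their difference of 10.2 percentage points gave an exact permutation p of 0.1, the smallest that 3 libraries against 3 allow. DBA2 BM IM replicate 3, the library with high HSP70, had the share of the LN4K1 lung TIMs. Strain, tumor line and tissue differ together between the models and cannot be told apart here, and reads with strain-specific bases could be assigned to the copies differently, which was not tested.

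**Figure D3:**
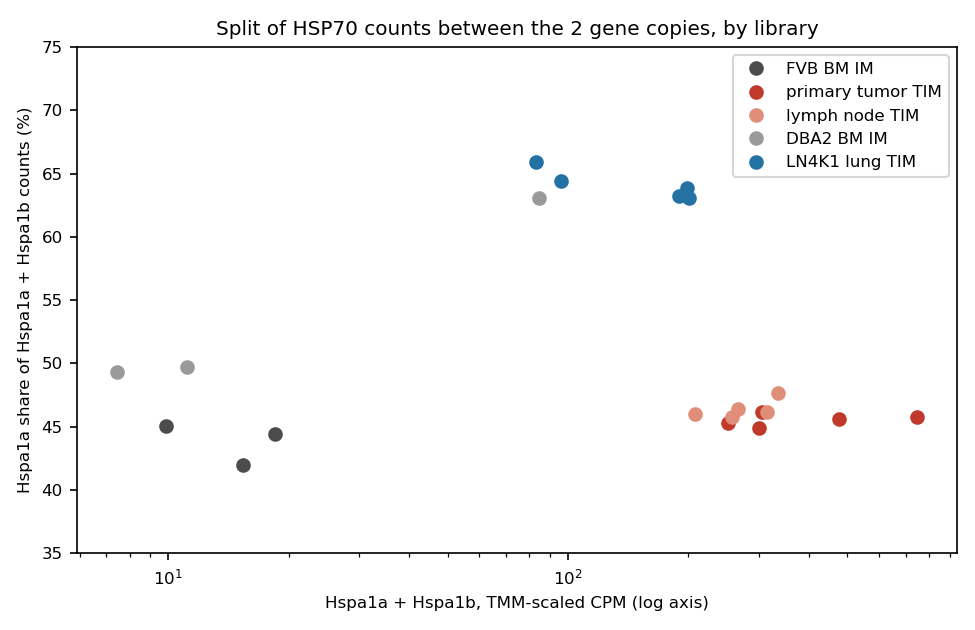
Share of Hspa1a in the summed Hspa1a and Hspa1b counts of each library (y axis, %, not starting at 0) against the summed level of both genes (x axis, TMM-scaled CPM, log axis), colored by group. The LN4K1 lung TIM libraries and DBA2 BM IM replicate 3 lie between 63.1% and 65.9%, and all other libraries lie between 42% and 49.7%.

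Dnajb1 (chromosome 8, 83608193 to 83612653, plus strand) encodes HSP40, the J protein partner of inducible HSP70 and itself a heat shock factor target. It was at 97.3, 91.0 and 114 CPM in FVB BM IMs, at 154, 145, 152, 152 and 146 CPM in primary tumor TIMs and at 174, 188, 180, 183 and 212 CPM in lymph node TIMs. The 3 groups did not overlap. Dnajb1 had a log2 fold change of 0.55 ± 0.10 in primary tumor TIMs (adjusted p = 0.000914) and 0.89 ± 0.13 in lymph node TIMs (adjusted p = 0.000426). In LN4K1 lung TIMs, at 106, 98.4, 89.7, 103 and 128 CPM against 112, 117 and 138 CPM in DBA2 BM IMs, it was -0.30 ± 0.13 and did not pass (adjusted p = 0.138).

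Hspa8 (chromosome 9, 40800984 to 40810087, plus strand) encodes HSC70, the HSP70 present in unstressed cells. It was at 437, 410 and 411 CPM in FVB BM IMs, between 489 and 666 CPM in primary tumor TIMs and between 563 and 878 CPM in lymph node TIMs. In the DBA2 mice it was at 385, 366 and 446 CPM in BM IMs and at 910, 884, 1163, 906 and 1097 CPM in LN4K1 lung TIMs, so every TIM library was above every BM library of its strain. The log2 fold change was 0.47 ± 0.11 (adjusted p = 0.00381), 0.84 ± 0.17 (adjusted p = 0.00393) and 1.24 ± 0.14 (adjusted p = 0.000171) in primary tumor, lymph node and LN4K1 lung TIMs. Exons of Hspa8 share between 86 and 90 bases with each of the small nucleolar RNA genes Snord14c, Snord14d and Snord14e.

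Hsph1 (chromosome 5, 149614287 to 149636376, minus strand), an HSP110 that acts as an exchange factor and holding chaperone, was not called in TIMs against BM IMs. It was between 37.5 and 58.1 CPM in FVB BM IMs, between 34.0 and 68.8 CPM in primary tumor TIMs and between 17.8 and 36.7 CPM in lymph node TIMs. The log2 fold changes were -0.04 ± 0.26 (adjusted p = 0.895), -0.63 ± 0.25 (adjusted p = 0.0706) and, in LN4K1 lung TIMs, -0.18 ± 0.18 (adjusted p = 0.533). All lymph node TIM libraries lay below all FVB BM IM libraries. The value in lymph node TIMs is near the threshold: with all 5 groups in 1 fit the adjusted p was 0.0388.

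Hsp90aa1 (chromosome 12, 110690605 to 110702728, minus strand), the inducible cytosolic HSP90, was lower in primary tumor TIMs, at 81.2, 90.9, 90.0, 92.4 and 93.0 CPM against 129, 113 and 98.7 CPM in FVB BM IMs. The log2 fold change was -0.36 ± 0.10 (adjusted p = 0.00858), and it did not pass without FVB BM IM replicate 1 (-0.24, adjusted p = 0.0782) or with all 5 groups in 1 fit (-0.35, adjusted p = 0.109). It was -0.09 ± 0.20 in lymph node TIMs (adjusted p = 0.761) and -0.35 ± 0.18 in LN4K1 lung TIMs (adjusted p = 0.184). Without LN4K1 lung TIM replicate 3, the highest lung library at 115 CPM, the last was -0.48 (adjusted p = 0.0092).

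Turning to the ER, Hspa5 (chromosome 2, 34771970 to 34777547, plus strand) was higher in TIMs in every comparison with BM IMs. It was at 1231, 1138 and 980 CPM in FVB BM IMs, at 2356, 2141, 2767, 2858 and 2742 CPM in primary tumor TIMs and at 3071, 2358, 2161, 2915 and 2793 CPM in lymph node TIMs. In the DBA2 mice it was at 854, 853 and 877 CPM in BM IMs and at 1462, 1512, 1957, 1878 and 1774 CPM in LN4K1 lung TIMs. TIM and BM IM libraries of the same strain did not overlap, and DBA2 BM IM replicate 3 was close to the rest of its group. Hspa5 thus had a log2 fold change of 1.19 ± 0.12 (2.28-fold, adjusted p = 3.18e-05), 1.25 ± 0.15 (2.39-fold, adjusted p = 0.000127) and 0.92 ± 0.13 (1.89-fold, adjusted p = 0.000675).

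Xbp1 (chromosome 11, 5520659 to 5525893, plus strand) was also higher in all TIMs, and most in the LN4K1 model. It was at 494, 494 and 456 CPM in FVB BM IMs, at 580, 596, 829, 675 and 617 CPM in primary tumor TIMs and at 730, 589, 642, 641 and 644 CPM in lymph node TIMs. DBA2 BM IMs held 444, 410 and 396 CPM and LN4K1 lung TIMs 951, 1030, 1227, 1258 and 1052 CPM, so no TIM library overlapped the BM IMs of its strain. For Xbp1 the log2 fold change was 0.44 ± 0.13 (adjusted p = 0.0135), 0.43 ± 0.10 (adjusted p = 0.00911) and 1.33 ± 0.13 (adjusted p = 7.38e-05). Plasma cells express Xbp1 strongly, and 10 B and plasma cell markers summed to between 34.3 and 48.4 CPM in FVB BM IMs, between 78.9 and 446 CPM in LN2E1 TIMs, between 24.3 and 32.5 CPM in DBA2 BM IMs and between 44.0 and 59.2 CPM in LN4K1 lung TIMs. Both the marker sum and Xbp1 were thus higher in the TIMs of each strain, and the part of these cells in the Xbp1 values was not tested.

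Ddit3 (chromosome 10, 127290774 to 127296288, plus strand), the gene of CHOP, was lower in primary tumor TIMs and in LN4K1 lung TIMs. It was at 37.7, 23.5 and 26.1 CPM in FVB BM IMs, at 18.7, 17.7, 19.6, 15.2 and 16.2 CPM in primary tumor TIMs and at 35.7, 30.1, 23.4, 30.7 and 24.8 CPM in lymph node TIMs. Primary tumor TIMs lay wholly below the FVB BM IMs and lymph node TIMs lay among them. For Ddit3 the log2 fold change was -0.75 ± 0.16 (adjusted p = 0.0029) in primary tumor TIMs and -0.01 ± 0.21 (adjusted p = 0.988) in lymph node TIMs. In the DBA2 mice BM IMs were at 21, 22.2 and 40.6 CPM, with replicate 3 highest, and LN4K1 lung TIMs were between 10.8 and 17.6 CPM. There the log2 fold change was -1.16 ± 0.25 (adjusted p = 0.00862), and -0.79 (adjusted p = 0.0451) without DBA2 BM IM replicate 3. Ddit3 shares 68 exon bases with Mars and 13 with Gm4189 on the opposite strand.

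Atf4 (chromosome 15, 80255184 to 80257541, plus strand) was between 229 and 252 CPM in FVB BM IMs, between 176 and 202 CPM in primary tumor TIMs and between 152 and 256 CPM in lymph node TIMs. It was lower in primary tumor TIMs by -0.34 ± 0.08 on the log2 scale (adjusted p = 0.00443), a call that did not pass with all 5 groups in 1 fit (adjusted p = 0.0746). The log2 fold change was -0.27 ± 0.16 in lymph node TIMs (adjusted p = 0.214) and -0.32 ± 0.16 in LN4K1 lung TIMs (adjusted p = 0.174), where the groups overlapped. Xbp1 and Hspa5 were therefore higher and Atf4 and Ddit3 lower in primary tumor TIMs.

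Between the 2 sites of the LN2E1 model, 2 members differed. Ddit3 was higher in lymph node than in primary tumor TIMs by 0.74 ± 0.14 (log2, adjusted p = 0.00689) and Dnajb1 by 0.33 ± 0.07 (log2, adjusted p = 0.015), without overlap between the groups for either. Among all genes, 6.15% were called higher and 5.55% lower in lymph node TIMs. The other 8 members were not called. Hspa1a, at -0.55 ± 0.28 (adjusted p = 0.241), and Hspa1b, at -0.61 ± 0.27 (adjusted p = 0.186), had means that were lower in lymph node TIMs with overlapping libraries.

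Between the BM IMs of the 2 strains, Hsph1 and Hspa5 were lower in DBA2 mice, where 9.57% of all genes were called lower and 11.5% higher. Hsph1 was at 22.7, 19.0 and 20.5 CPM in DBA2 BM IMs against 37.5, 48.8 and 58.1 CPM in FVB BM IMs (log2 difference -1.19 ± 0.18, adjusted p = 0.00395), and this call held under every alternative run. The lower Hsph1 level was also seen in LN4K1 lung TIMs, at 18.9, 24, 15.1, 21.7 and 16.8 CPM. Hspa5 differed by -0.35 ± 0.10 (adjusted p = 0.0372), a call lost when any 1 of 5 of the 6 libraries was left out, with an adjusted p up to 0.131.

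Whether the change in LN2E1 primary tumor TIMs differed from that in LN4K1 lung TIMs was tested as an interaction, in which tumor line, strain and site differ together. Of the 10 members, 3 were called with a more positive change in the primary tumor and 2 with a less positive one, where 13.2% and 13.3% of all genes were called in these directions. The difference of log2 fold changes was 0.87 ± 0.16 for Dnajb1 (adjusted p = 0.00175), -0.75 ± 0.16 for Hspa8 (adjusted p = 0.0043) and -0.87 ± 0.18 for Xbp1 (adjusted p = 0.00272). These 3 calls also held without DBA2 BM IM replicate 3. For Hspa1a it was 2.73 ± 0.94 (adjusted p = 0.0433) and for Hspa1b 2.82 ± 0.82 (adjusted p = 0.0203). In the fit that omits DBA2 BM IM replicate 3, these were 0.56 (adjusted p = 0.543) and 1.30 (adjusted p = 0.138), and for Hspa1a the call was lost when any 1 of 11 of the 16 libraries was left out.

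The rest of the machinery was read from 14 lists of genes, which were chosen with earlier results of these data known. The counts of each list include the members on it unless stated. Leaving aside the members and the immediate early genes, 37.1% of the 167 tested list genes were called higher and 29.3% lower in primary tumor TIMs, 26.7% and 20.5% of 161 in lymph node TIMs and 12.3% and 11.1% of 162 in LN4K1 lung TIMs. Over all genes the shares were 33.3% and 28.6%, 20.2% and 17.2%, and 13.9% and 11%, and the counts of each list below stand beside them. Many calls that involve the DBA2 BM IMs were lost without replicate 3, which leaves 2 libraries in that group: 15 of the 30 calls of named list genes in LN4K1 lung TIMs, 15 of 27 between BM IMs and 9 of 32 in the interaction, with shifts of at most 0.07, 0.18 and 0.11 in their log2 values. In the HSP70 and HSP110 family, Hspa2 was higher in all TIMs, at 10.5 CPM in FVB BM IMs against 40.9 in primary tumor and 59.8 in lymph node TIMs, and at 5.88 CPM in DBA2 BM IMs against 25.6 in LN4K1 lung TIMs. It was also higher in lymph node than in primary tumor TIMs (log2 0.56, adjusted p = 0.015). Hspa14, a ribosome-associated HSP70, was lower in all TIMs, with log2 fold changes of -0.92, -0.80 and -0.55 in primary tumor, lymph node and LN4K1 lung TIMs. Hspa13 was higher and Hspa14 lower in DBA2 than in FVB BM IMs, by 0.74 and -0.41. Of the 12 family genes, 7 were called higher and 2 lower in primary tumor TIMs, 4 and 1 of 11 tested in lymph node TIMs and 2 and 1 of 12 in LN4K1 lung TIMs, the last being 4 and 0 without DBA2 BM IM replicate 3. Setting aside the members on this list left 4 and 2 of 8 tested in primary tumor TIMs. It left 1 and 1 of 7 in lymph node TIMs and 1 and 1 of 8 in LN4K1 lung TIMs. In the fit without DBA2 BM IM replicate 3, Hspa14 was not called in LN4K1 lung TIMs (adjusted p = 0.0526) or between BM IMs (adjusted p = 0.11).

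Among HSP90 and its cochaperones more genes were called lower than higher in TIMs. Of 13 genes for HSP90 and its cochaperones, 8 were called lower and 2 higher in primary tumor TIMs, 7 and 1 in lymph node TIMs and 5 and 1 in LN4K1 lung TIMs, with medians of -0.36, -0.37 and -0.35. Without DBA2 BM IM replicate 3 the last counts were 3 and 0. Those lower in all TIMs were Aarsd1 (-1.68, -1.73 and -1.02 in primary tumor, lymph node and LN4K1 lung TIMs), the immunophilin gene Fkbp4 (-0.87, -1.26 and -0.75) and the kinase cochaperone gene Cdc37 (-0.46, -0.46 and -0.48). Among 18 J proteins and HSP70 cochaperones, 6 were called higher and 8 lower in primary tumor TIMs, 6 and 5 in lymph node TIMs and 1 and 2 in LN4K1 lung TIMs. The ubiquitin ligase gene Stub1 (-1.09, -1.21 and -0.42) and Stip1, the gene of the HSP70-HSP90 adaptor HOP (-0.32, -0.34 and -0.47), were lower in all TIMs. When DBA2 BM IM replicate 3 was left out, the counts of the J protein list in LN4K1 lung TIMs were 1 and 1, and Cdc37 (adjusted p = 0.0708) and Stub1 (adjusted p = 0.0882) were not called there.

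The cochaperone Bag3, an exchange factor of HSP70 in selective autophagy, was higher than in BM IMs by 1.73 ± 0.14 in primary tumor TIMs and 1.85 ± 0.27 in lymph node TIMs (log2, adjusted p = 7.54e-06 and 0.000489), and was not called in LN4K1 lung TIMs (0.31 ± 0.29, adjusted p = 0.484). Its change was greater in the primary tumor than in LN4K1 lung TIMs (difference 1.44, adjusted p = 0.0062), as was that of the J protein gene Dnajb4 (1.51, adjusted p = 0.00465) and of the myosin chaperone gene Unc45a (1.40, adjusted p = 0.0132). That of Cacybp was smaller (-1.07, adjusted p = 0.00541). Lymph node TIMs exceeded primary tumor TIMs in Dnaja1 (0.50), Dnajb6 (0.47) and Cacybp (0.50). Between BM IMs, Bag3 was higher in DBA2 mice (0.96), as was Ppp5c (0.81), while Bag1 (-0.87) and the glucocorticoid-inducible Fkbp5 (-2.94) were lower. In the fit that omits DBA2 BM IM replicate 3, Ppp5c (adjusted p = 0.0621) and Bag1 (adjusted p = 0.1) were not called between BM IMs.

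Of the 8 subunits of TRiC, the cytosolic folding chamber for actin and tubulin, 5 were called lower in primary tumor TIMs, 2 in lymph node TIMs and 1 in LN4K1 lung TIMs, and 0 were called higher. Cct7 was lower in all 3, by -0.52, -0.45 and -0.39. Cct4 was higher in lymph node than in primary tumor TIMs (0.45), Cct4 and Cct8 were lower in DBA2 than in FVB BM IMs (-0.65 and -0.53), and the changes of Cct8 and Cct5 were less positive in the primary tumor than in LN4K1 lung TIMs (-0.62 and -0.57). Without DBA2 BM IM replicate 3 no TRiC gene was called in LN4K1 lung TIMs (Cct7, adjusted p = 0.0706), and Cct8 was not called between BM IMs (adjusted p = 0.0728).

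Of 10 mitochondrial chaperones and proteases, 6 were called lower and 1 higher in primary tumor TIMs, 4 lower and 0 higher in lymph node TIMs, and 0 in either direction in LN4K1 lung TIMs. The exchange factor gene Grpel2 (-0.89 and -1.67) and the protease gene Clpp (-0.87 and -0.93) were lower in primary tumor and lymph node TIMs, and Grpel2 was lower in lymph node than in primary tumor TIMs (-0.79). The changes of Grpel2 (-0.78) and of Hspe1, the gene of HSP10 (-0.88), were less positive in the primary tumor than in LN4K1 lung TIMs. Hspd1, the gene of HSP60, and Hspa9 were lower in DBA2 than in FVB BM IMs, by -0.39 and -0.36. When DBA2 BM IM replicate 3 was left out, neither was called between BM IMs (adjusted p = 0.109 and 0.118), and Hspe1 was not called in the interaction (adjusted p = 0.0941). Of the 7 small heat shock proteins, 4 were called higher and 1 lower in primary tumor TIMs, the group with fibroblast markers between 361 and 1100 CPM, 0 in either direction of 6 tested in lymph node TIMs and 2 higher and 1 lower of 5 in LN4K1 lung TIMs, where 0 of 6 were called without DBA2 BM IM replicate 3. The 4 called higher in primary tumor TIMs had low means there, between 0.238 and 3.46 CPM, and the part of fibroblasts in them was not tested. Of 4 tested heat shock factors and regulators, 1 was called higher and 1 lower in primary tumor and lymph node TIMs, and 0 and 1 in LN4K1 lung TIMs. The 1 called higher was Hsf2bp, with low means of 1.31 and 1.72 CPM in primary tumor and lymph node TIMs. The 1 called lower was Hsf2 (-1.50, -1.69 and -0.91). Both genes lie under the expression limit set for named genes. Hsf1 was not called in these comparisons. Without DBA2 BM IM replicate 3, 0 were called in LN4K1 lung TIMs. Hsbp1 alone was called in the interaction (-0.62, adjusted p = 0.0429), and it was not without DBA2 BM IM replicate 3 (adjusted p = 0.106).

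The ER lists stand beside 33.3% of all genes called higher and 28.6% lower in primary tumor TIMs, 20.2% and 17.2% in lymph node TIMs and 13.9% and 11% in LN4K1 lung TIMs. Of 11 UPR sensors and transcription factors, 6 were called higher and 2 lower in primary tumor TIMs, and 4 and 0 in lymph node TIMs. The 2 called lower were Atf4 and Ddit3. In LN4K1 lung TIMs 2 were called higher and 1 lower. Of the 8 that are not members, 5 were called higher in primary tumor, 3 in lymph node and 1 in LN4K1 lung TIMs, and 0 lower. Atf6 was at 55.1 CPM in FVB BM IMs, at 255 and 216 CPM in primary tumor and lymph node TIMs, at 68.2 CPM in DBA2 BM IMs and at 140 CPM in LN4K1 lung TIMs. On the log2 scale these were differences of 2.18 ± 0.21 (adjusted p = 2.38e-05), 1.96 ± 0.32 (adjusted p = 0.00102) and 0.96 ± 0.32 (adjusted p = 0.0574), and the first exceeded the last by 1.24 (adjusted p = 0.0339), a call lost without DBA2 BM IM replicate 3 (1.21, adjusted p = 0.068).

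The related factor Creb3l2 was higher in primary tumor TIMs (1.03, adjusted p = 0.00949), and the change of Creb3 was less positive there than in LN4K1 lung TIMs (-0.48, adjusted p = 0.0433). Mbtps1, the protease that cleaves ATF6, was lower in lymph node than in primary tumor TIMs (-0.89, adjusted p = 0.0435). Eif2ak3, the gene of PERK, was lower in DBA2 than in FVB BM IMs (-0.80, adjusted p = 0.0403). In the fit that omits DBA2 BM IM replicate 3, neither Creb3 (adjusted p = 0.0794) nor Eif2ak3 (adjusted p = 0.126) was called in these comparisons.

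Of 21 ER chaperones and folding enzymes, 9 were called higher and 5 lower in primary tumor TIMs, 9 and 3 in lymph node TIMs and 3 and 1 in LN4K1 lung TIMs, with medians of 0.24, 0.38 and 0.15. Without DBA2 BM IM replicate 3 the last counts were 1 and 0. The oxidase gene Ero1l was at 75.9 CPM in FVB BM IMs, 160 CPM in primary tumor and 243 CPM in lymph node TIMs, and at 65.4 and 64.5 CPM in DBA2 BM IMs and LN4K1 lung TIMs. Its changes differed between primary tumor and LN4K1 lung TIMs by 1.17 (adjusted p = 0.00175). Hyou1, an ER HSP70 relative and exchange factor of BiP, was at 13.1 CPM in FVB BM IMs, 43.8 in primary tumor TIMs and 17.5 in lymph node TIMs, but at 72.0 and 83.2 CPM in DBA2 BM IMs and LN4K1 lung TIMs. It was higher in DBA2 than in FVB BM IMs by 2.48 ± 0.25 (adjusted p = 0.000522), the opposite of Hspa5 and of Manf (-0.96), and lower in lymph node than in primary tumor TIMs (-1.32). Dnajb9, an IRE1-XBP1 target, was higher in lymph node than in primary tumor TIMs (0.83). Txndc5, a disulfide isomerase relative, was lower in all TIMs (-0.48, -0.71 and -1.0), the last not called without DBA2 BM IM replicate 3 (adjusted p = 0.0838).

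Of 28 genes of ER-associated degradation and translocation, 12 were called higher and 4 lower in primary tumor TIMs, 11 and 0 in lymph node TIMs and 6 and 0 in LN4K1 lung TIMs, the last being 1 and 0 without DBA2 BM IM replicate 3. Ssr3, a subunit of the translocon-associated complex, was higher in all TIMs (1.31, 1.61 and 0.77), as was Sec63 (0.48, 0.47 and 0.73). Edem3, which trims mannose from misfolded glycoproteins, and Syvn1, the ubiquitin ligase HRD1, had greater changes in the primary tumor than in LN4K1 lung TIMs (1.8 and 1.61). Derl2 (0.53) and Selk (0.49) were higher in lymph node than in primary tumor TIMs, and Erlec1 was higher (1.13) and Ssr1 lower (-0.68) in DBA2 than in FVB BM IMs. When DBA2 BM IM replicate 3 was left out, Sec63 was not called in LN4K1 lung TIMs (adjusted p = 0.0768) nor Erlec1 between BM IMs (adjusted p = 0.0591).

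**Figure D4:**
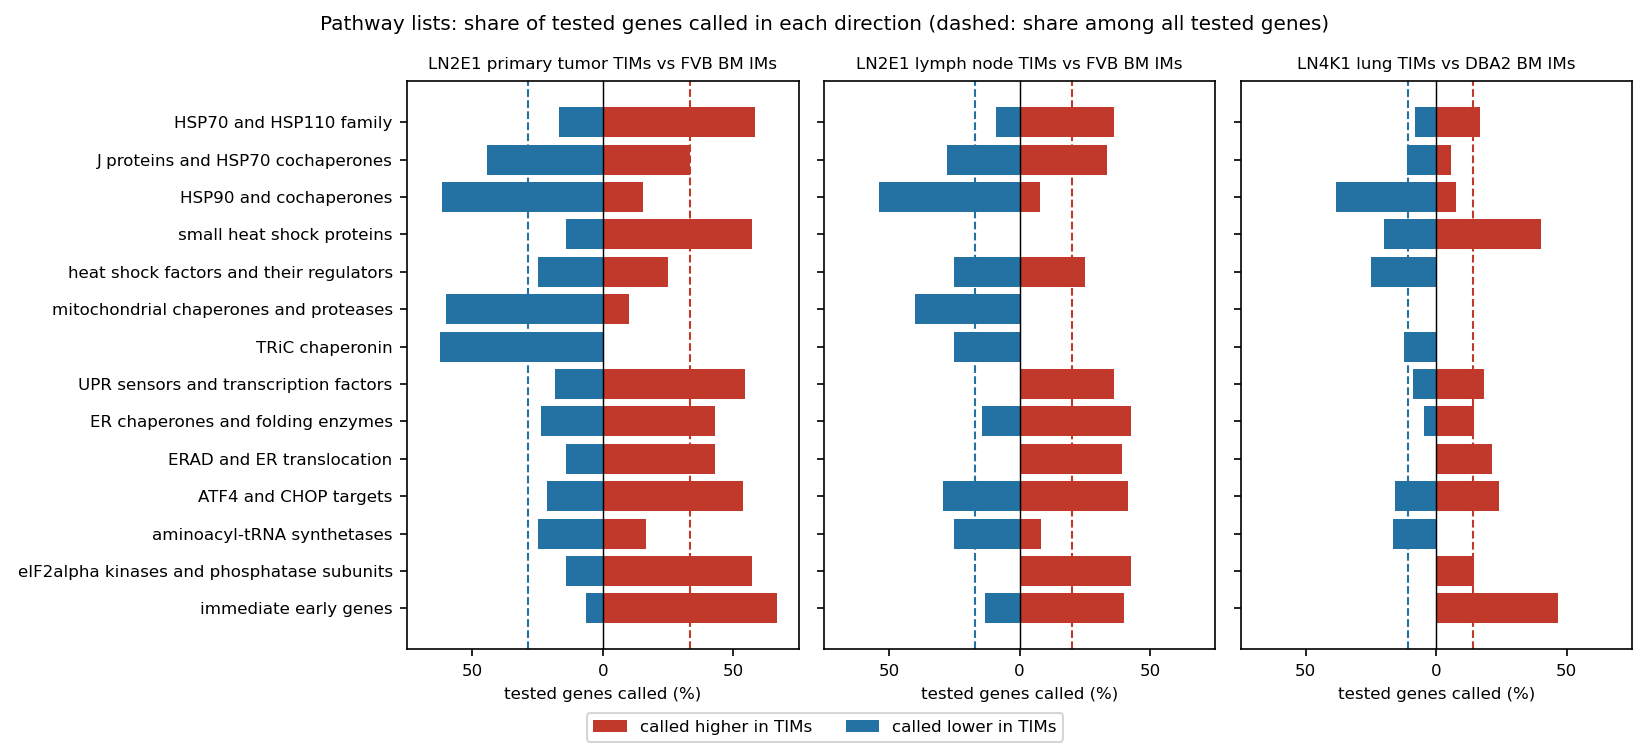
Share of tested genes of each list called higher (red, right) or lower (blue, left) in TIMs in the 3 comparisons with BM IMs; dashed lines mark the shares among all tested genes. In both LN2E1 comparisons the blue bars are the longer ones for the HSP90, mitochondrial, TRiC and aminoacyl-tRNA synthetase lists. The red bars are the longer ones there for the HSP70, UPR sensor, ER chaperone, ERAD, ATF4 and CHOP target, eIF2alpha and immediate early lists. Several lists hold fewer than 10 genes.

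The targets of ATF4 and CHOP went in both directions, with more called higher than lower in TIMs. Atf4 and Ddit3 themselves were not called higher in any TIM group. Of 28 tested, 15 were called higher and 6 lower in primary tumor TIMs, 10 and 7 of 24 in lymph node TIMs and 6 and 4 of 25 in LN4K1 lung TIMs. Over all genes the shares were 33.3% and 28.6%, 20.2% and 17.2%, and 13.9% and 11%. The median log2 fold change of the list was 1.05, 0.35 and 0.32, beside 0.08, -0.04 and 0.03 over all genes. Higher in all TIMs were Asns, the gene of asparagine synthetase (1.32, 1.36 and 1.25), Ppp1r15a, the gene of the eIF2alpha phosphatase subunit GADD34 (1.44, 1.5 and 1.07), the proapoptotic Bcl2l11 (2.15, 2.04 and 0.92) and the cystine transporter gene Slc7a11 (3.22, 2.95 and 0.82). Lower in all TIMs were Psat1 (-1.82, -2.10 and -2.31), Shmt2 (-1.48, -2.04 and -1.93) and Mthfd2 (-0.84, -0.78 and -0.50), enzymes of serine synthesis and mitochondrial folate metabolism. Atf3 was lower (-0.93) and the proapoptotic Bbc3 higher (0.81) in lymph node than in primary tumor TIMs. The leucine transporter gene Slc7a5 was higher in DBA2 than in FVB BM IMs (1.35) and had a greater change in the primary tumor than in LN4K1 lung TIMs (2.43), as Bbc3 was higher in DBA2 BM IMs (1.37), while the change of Cebpb was less positive in the primary tumor (-2.90). In the fit that omits DBA2 BM IM replicate 3, 5 were called higher and 2 lower of 26 in LN4K1 lung TIMs, Slc7a11 (adjusted p = 0.102) and Mthfd2 (adjusted p = 0.0971) were not called there, and Slc7a5 was not called between BM IMs (adjusted p = 0.125).

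Of 12 aminoacyl-tRNA synthetases, which ATF4 also induces, 2 were called higher and 3 lower in primary tumor TIMs, 1 and 3 in lymph node TIMs and 0 and 2 in LN4K1 lung TIMs. Of all genes, 33.3% and 28.6%, 20.2% and 17.2%, and 13.9% and 11% were called higher and lower in these comparisons. Yars was lower in all TIMs (-0.49, -0.76 and -0.51). Aars was lower in lymph node than in primary tumor TIMs (-0.54), Wars and Yars were lower in DBA2 than in FVB BM IMs (-0.48 and -0.47), and the change of Lars was more positive in the primary tumor than in LN4K1 lung TIMs (0.63). Of 7 eIF2alpha kinases and phosphatase subunits, 4 were called higher and 1 lower in primary tumor TIMs, 3 and 0 in lymph node TIMs and 1 and 0 in LN4K1 lung TIMs, beside the same shares of all genes. The constitutive phosphatase subunit gene Ppp1r15b was at 52.0 CPM in FVB BM IMs and at 232 and 224 CPM in primary tumor and lymph node TIMs, and at 160 CPM in DBA2 BM IMs against 244 in LN4K1 lung TIMs. It was higher in DBA2 BM IMs (1.64) and had a greater change in the primary tumor (1.61), as did Eif2ak4, the gene of GCN2 (0.89). Eif2ak2, the gene of PKR, was higher in lymph node than in primary tumor TIMs (0.67) and in DBA2 than in FVB BM IMs (1.44). Without DBA2 BM IM replicate 3 no synthetase was called in LN4K1 lung TIMs (Yars, adjusted p = 0.087) or between BM IMs (Wars and Yars, adjusted p = 0.0921 and 0.0556), and Lars (adjusted p = 0.0558) and Eif2ak4 (adjusted p = 0.0518) were not called in the interaction.

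Of the 15 immediate early genes, 10 were called higher and 1 lower in primary tumor TIMs, 6 and 2 in lymph node TIMs and 7 and 0 in LN4K1 lung TIMs. The shares of all genes were 33.3% and 28.6%, 20.2% and 17.2%, and 13.9% and 11%. Ier3 (4.05, 2.88 and 5.22), Nr4a1 (3.64, 3.27 and 2.24), Junb (1.63, 1.42 and 1.67) and Egr1 (2.88, 1.35 and 1.59) were higher in all TIMs. In lymph node against primary tumor TIMs 8 were called lower, among them Egr1 (-1.55) and Fos (-1.33), and 0 higher. Among all genes 5.55% were called lower and 6.15% higher there. Egr1 (1.64) and Nr4a1 (1.63) were higher in DBA2 than in FVB BM IMs, and in the interaction Nr4a1 was more positive (1.42) and Ier2 less positive (-0.59) in the primary tumor. When DBA2 BM IM replicate 3 was left out, 9 were called higher in LN4K1 lung TIMs, Egr1 not among them (adjusted p = 0.0958), and Nr4a1 was not called between BM IMs (adjusted p = 0.0874) or in the interaction (adjusted p = 0.0755).

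Over the 21 libraries, the genes with the most similar profiles were named by the root mean square (RMS) difference of log2 CPM centered on each gene's mean, among 8016 genes. The nearest gene to Hspa1a was Hspa1b, at an RMS difference of 0.486 where Hspa1a itself varied by 1.99 about its mean, and the next nearest were Adamtsl4 (0.749) for Hspa1a and Ell2 (0.687) for Hspa1b. Hspa5, which varied by 0.624, was nearest to Elk3 (0.189) and Tpm4 (0.191). Xbp1, which varied by 0.489, was nearest to Nme2 (0.203) and Stard5 (0.206), and Hspa8, which varied by 0.509, to Gm5434 (0.193) and Igsf6 (0.196). Dnajb1 was nearest to Gnai3 (0.172) and Ubr2 (0.179) and Ddit3 to 3230401D17Rik (0.288) and Dynll2 (0.311). Hsph1 was nearest to Cyp4f13 (0.358) and Gm8615 (0.369), Hsp90aa1 to Txn1 (0.158) and Bloc1s5 (0.16), and Atf4 to Myl6 (0.166) and U2af1l4 (0.176). Hsp90aa1 and Atf4 themselves varied by 0.266 and 0.224, and Hsph1 by 0.625. Apart from the HSP70 pair, no member was the nearest or second nearest gene of another.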

How the data were processed

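RNA from sorted IMs was made into SMARTer and Nextera XT libraries, which do not mark strand. The deposited values are raw counts per gene symbol. Per the study's methods the authors trimmed reads with BBDuk, aligned them to mm10 with BBMap and counted with featureCounts 1.5.2 (SAMtools 1.8). How reads with several matches were counted is not given in the sources used here. The number of count columns left unused was 0.

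Counts were scaled by TMM over the 21 libraries and tested with edgeR 4.0.16 (robust quasi-likelihood test, R 4.3.3) in the groups of each comparison, after filterByExpr (minimum count 10, minimum total 15). P-values were adjusted over all genes tested (Benjamini-Hochberg), and a gene was called at an adjusted p under 0.05. SE is the log2 fold change over the root of F, an approximation. RPKM divides CPM by the exon length in GENCODE vM21. Log2 CPM used a prior count of 2. The fits were tested on simulated data.

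The members and lists were chosen with earlier results of these data known. Outside the members, each list gave up to 4 genes per direction called alike in all 3 TIM comparisons (mean log2 CPM above 3), otherwise up to 2 called in any 1, and up to 2 in each other comparison. The 2 nearest profiles were named per member. Alternatives were DESeq2 1.42.0, its size factors, other count filters, all 5 groups in 1 fit, a replicate block and leaving out each library. Calls of the lists and their named genes without DBA2 BM IM replicate 3 were added after seeing the data. The authors tested with DESeq2, and their comparisons were not used.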

Additional observations from a re-analysis of the deposited data

Results flagged for a closer look

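The change in primary tumor TIMs over FVB BM IMs and that in LN4K1 lung TIMs over DBA2 BM IMs differed for 5 members by edgeR's interaction test. The difference of log2 fold changes was 2.73 for Hspa1a (adjusted p = 0.0433), 2.82 for Hspa1b (adjusted p = 0.0203), 0.87 for Dnajb1 (adjusted p = 0.00175), -0.75 for Hspa8 (adjusted p = 0.0043) and -0.87 for Xbp1 (adjusted p = 0.00272). Tumor line, strain and site cannot be told apart in it, and the values of Hspa1a and Hspa1b rest on DBA2 BM IM replicate 3, without which they were 0.56 (adjusted p = 0.543) and 1.30 (adjusted p = 0.138).

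In 3 of 30 groups of 5 libraries, 1 library lay below the others by a large part of the group's range, where chance gives about 1 in 20. Hsph1 was at 17.8 CPM in lymph node TIM replicate 1, Hsp90aa1 at 81.2 CPM in primary tumor TIM replicate 1 and Atf4 at 176 CPM in primary tumor TIM replicate 4. The rest of these groups lay at 32.3 to 36.7, 90.0 to 93.0 and 196 to 202 CPM. Without the first, Hsph1 was called lower in lymph node TIMs (-0.48, adjusted p = 0.0414). The causes were not tested.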

How the results depend on the processing

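Of the members' alternative values, 885 kept their direction and their side of the threshold, 33 lost a call, 14 gained one and 48 changed sign, all of the last in members not called in that comparison. Members called numbered 9 in primary tumor TIMs (8 to 9 with 1 library left out), 6 in lymph node TIMs (6 to 7), 4 in LN4K1 lung TIMs (4 to 6), 2 between LN2E1 sites (2), 2 between BM IMs (1 to 3) and 5 in the interaction (3 to 5). With all 5 groups in 1 fit 1 was called between BM IMs, and 6 in LN4K1 lung TIMs, as by DESeq2. Same-numbered libraries did not deviate together (correlations from -0.3 to 0.3 over 17 pairs), so the numbers were not taken to pair them. With a replicate block the counts were 4, 7, 4, 0, 1 and 3, and genes called over the whole table were 5954 against 9025 without it in primary tumor TIMs, 3566 against 4969 in lymph node TIMs, 1324 against 3389 in LN4K1 lung TIMs, 533 against 1578 between sites, 2392 against 2719 between BM IMs and 3115 against 4022 in the interaction. DESeq2 called 3074 between sites. Members past the DEG thresholds numbered 0 in each comparison with the block, 0 to 3 in primary tumor TIMs and 0 to 2 in LN4K1 lung TIMs with 1 library left out, and 2 in LN4K1 lung TIMs by DESeq2 and with all 5 groups.

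Signs changed as follows (log2). In primary tumor TIMs Hsph1 was 0.01 with DESeq2 size factors, with at least 10 counts in every library and by DESeq2, and -0.22 to 0.13 with 1 library left out. In lymph node TIMs Ddit3 was 0.00 with size factors and by DESeq2, 0.05 with the block and -0.15 to 0.22 with 1 library left out, and Hsp90aa1 0.06 with the block and -0.25 to 0.00. Between sites, leaving out 1 library gave Hspa5 -0.01 to 0.11, Atf4 -0.06 to 0.14 and Xbp1 -0.07 to 0.08. Between BM IMs it gave Hspa1a -0.45 to 2.23 and Hspa1b -0.79 to 1.19 (both lowest without DBA2 BM IM replicate 3), Hspa8 -0.14 to 0.01, Ddit3 -0.40 to 0.19 and Atf4 -0.03 to 0.19. In the interaction Atf4 was 0.04 with size factors and by DESeq2, 0.01 with the 10-count filter, 0.00 with the block and -0.11 to 0.10, Hsp90aa1 -0.06 with a filter of 1 count and with all 5 groups and -0.08 to 0.14, and Hsph1 -0.06 to 0.33. The causes were not tested.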
